A study of Homo sapiens with 12 samples.

Results

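The CCAAT/enhancer-binding protein (C/EBP) genes were examined by RNA-seq in A375, a human melanoma cell line in long use. Rows were taken by gene symbol: CEBPA, CEBPB, CEBPD, CEBPG and CEBPZ, which are 5 of the 20263 genes in the deposited table. All 5 passed the filter on low counts, which left 14287 genes for testing. The cells carried the WT genotype of the line and fell into 4 treatments with 3 libraries each, namely Ctrl, DBIC, Hemin and DBIC+Hemin. DBIC is the label for DdBIC, the compound with which the study induced pyroptosis (a lytic form of cell death), and is called DdBIC from here on. Hemin is the oxidised, chloride-bound form of heme and was given alone or together with DdBIC. The doses and durations used for these libraries, and the vehicle of Ctrl, are not given in the sources used here. Every group is the same cell line, and the labels do not say whether the 3 libraries of a group came from separate cultures. The study gives independent experiments as its general rule without naming these libraries, so the p-values measure the spread between these libraries, which may be technical.

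C/EBP proteins are transcription factors with a basic region, which contacts DNA, and a leucine zipper, through which they pair with each other and with related bZIP proteins. CEBPA drives differentiation and growth arrest in liver, fat and myeloid cells. CEBPB and CEBPD are rapidly induced in acute-phase, inflammatory and stress responses. CEBPG encodes a short C/EBP without a transactivation domain of its own that pairs with CEBPA, CEBPB and ATF4. CEBPZ shares the name through its early description as a CCAAT-binding factor, but it is not a bZIP protein. It is the counterpart of a yeast factor needed to build the large ribosomal subunit. DDIT3 (CHOP), a C/EBP-related bZIP protein induced by endoplasmic reticulum stress, is described below with the partners.

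In GENCODE 29 on GRCh38, CEBPA (ENSG00000245848) lies on chromosome 19 at 33299934 to 33302564 on the minus strand and has 1 exon. CEBPG (ENSG00000153879) lies on the same chromosome at 33373330 to 33382686 on the plus strand with 2 exons, and 70765 bases separate the pair. CEBPB (ENSG00000172216) is a gene of 1 exon on chromosome 20, at 50190734 to 50192689 on the plus strand. CEBPZ (ENSG00000115816) has 16 exons on chromosome 2, at 37201612 to 37231713 on the minus strand.

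Promoter sequence from RefSeq (GRCh38.p14) is shown for 4 of the 5 genes, CEBPB, CEBPG and CEBPZ, which rose under DdBIC, and CEBPA, which did not pass the test. CEBPD, which also rose, is not shown. Each line gives bases upstream of a start site, 5′ to 3′ on the strand of the gene, with matches on either strand to a first group of motifs in capitals. These were TGACG, which is the core of the cAMP response element, TGATGNAA, the core of the C/EBP-ATF response element, TGANTCA, the site of AP-1, the CCAAT box, and GGGCGG, known as the GC box. The first 3 lines lie upstream of every annotated start of the gene, and the last 2 are stretches of 30 bases around a motif before a second, downstream start.
CEBPA, chr19:33302565-33302784, minus strand: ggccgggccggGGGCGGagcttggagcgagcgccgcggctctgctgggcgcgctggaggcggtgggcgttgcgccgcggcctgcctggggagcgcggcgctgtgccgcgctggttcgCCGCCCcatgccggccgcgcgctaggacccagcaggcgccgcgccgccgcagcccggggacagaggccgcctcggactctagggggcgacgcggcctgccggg
CEBPB, chr20:50190333-50190582, plus strand: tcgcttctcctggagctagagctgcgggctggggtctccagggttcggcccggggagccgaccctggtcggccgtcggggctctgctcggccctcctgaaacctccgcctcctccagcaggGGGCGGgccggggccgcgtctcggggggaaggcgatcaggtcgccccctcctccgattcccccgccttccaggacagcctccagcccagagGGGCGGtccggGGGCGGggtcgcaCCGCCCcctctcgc
CEBPZ, chr2:37231714-37231846, minus strand: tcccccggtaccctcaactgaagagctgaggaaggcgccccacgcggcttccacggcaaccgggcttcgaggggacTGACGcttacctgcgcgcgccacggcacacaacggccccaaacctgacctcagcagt
CEBPB, chr20:50190764-50190793, plus strand: gggccggcgTGACGcagcggttgctacggg
CEBPG, chr19:33374063-33374092, plus strand: gcggcgtcTGATGCAAcctgccggcaacac

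These windows were GC-rich. Over the whole 250 bases before a start, GC content was 81.2% for CEBPA, 75.6% and 77.6% for the 2 starts of CEBPB, 76.0% and 79.2% for those of CEBPG and 62.8% for CEBPZ, against a median of 58.0% over all 35116 RefSeq promoters. The CEBPG match TGATGCAA lies 42 to 35 bases before the downstream start, and TGATGNAA was found in 3.14% of all promoters. The CEBPB match to TGACG lies 57 to 53 bases before its downstream start and the CEBPZ match 174 to 170 bases before its start, while 21.2% of promoters hold TGACG. Both CEBPB windows, the CEBPA window and 1 of the 2 CEBPG windows held GGGCGG, as did 42.6% of promoters. CCAAT was found once before the downstream start of CEBPB and at 2 places before the upstream start of CEBPG, against 32.0% of promoters, and these lie outside the stretches shown. TGACGTCA, which contains TGACG, the full C/EBP site TTGCGCAA and TGANTCA had no match in any of the 6 windows, against 1.65%, 0.131% and 6.57% of all promoters. A second group was searched in the same way and is left in lower case. The TATA box, spelled TATAAA, lies 30 to 25 bases before the CEBPA start and 29 to 24 bases before the downstream CEBPB start, and 10.7% of promoters hold it. The EGR core, spelled GCGNGGGCG and overlapping a GC box, was found before the downstream CEBPG start, against 8.41% of promoters. One arm of the C/EBP site, spelled TTGCN, was found in 5 of the 6 windows against 74.7% of promoters, and in the CEBPG stretch it overlaps the match shown in capitals. CCACG, a part of the endoplasmic reticulum stress element, was found in both CEBPG windows and that of CEBPZ, against 33.5%. These matches are letters in a sequence and were not tested for binding.

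The libraries held 37951275 to 44358912 counts, and log2 CPM (counts per library total, the totals adjusted by edgeR's TMM factors) correlated at 0.985 to 0.988 between libraries of 1 group. HMOX1, the heme-inducible heme oxygenase that checks the hemin label, was at 7.99 to 9.19 CPM in Ctrl, 7.26 to 8.73 in DdBIC, 61.9 to 65.5 in Hemin and 146 to 188 with both. Of 10 melanocyte-lineage markers, 5 (SOX10, MITF, CSPG4, S100B and S100A1) were at or above 1 TPM in all 12 libraries, and the pigment-cell markers PMEL, MLANA, TYR, TYRP1 and DCT reached at most 1.18 TPM in any library. The summed TPM of the 10 was 722 to 744 in Ctrl, 795 to 832 in DdBIC, 645 to 658 in Hemin and 667 to 746 with both, and its part in the results below was not tested. Markers of other cell types were read in part. Of 5 keratinocyte markers 3 (KRT10 at 52.8 to 79.4 TPM, KRT14 and KRT15), of 6 leukocyte markers 2 (CD68 at 24.5 to 35.1 TPM and LYZ at 1.86 to 3.13) and of 5 fibroblast markers 2 (LUM and PDGFRB) were at or above 1 TPM in every library. The leukocyte sum was 36.4 to 36.9 TPM in Ctrl and 28.95 to 35.3 under DdBIC. In the same order the fibroblast sum was 15.4 to 16.8 and 11.9 to 12.3, and the keratinocyte sum 65.8 to 68.8 and 73.7 to 88.9. The sum of 3 endothelial markers, none at or above 1 TPM in every library, was 0.337 to 0.503 and 0.820 to 1.01. The part of these sums in the results was not tested either. KRT1, the leukocyte marker PTPRC and the neutrophil gene ELANE were at 0 in all 12 libraries. The granulocyte C/EBP gene CEBPE had a count of 0 in all 12 libraries, which allows up to 3 counts in each for counting error.

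Levels of different genes were compared in deposited TPM, which the authors scaled by transcript length. In Ctrl, CEBPB (84.5 ± 3.56 TPM, SD, n = 3) and CEBPZ (77.6 ± 3.13) were the highest and their libraries overlapped. CEBPG followed at 25.3 ± 1.77 TPM. CEBPA (3.11 ± 0.254) and CEBPD (2.67 ± 0.136) came last, again with overlapping libraries. Under DdBIC the order was CEBPB (314 ± 29.8), CEBPZ (94.4 ± 3.99), CEBPG (44.9 ± 0.901), CEBPD (6.11 ± 0.394) and CEBPA (3.50 ± 0.633), and no neighbours overlapped. CEBPD thus stood above CEBPA in the DdBIC libraries and below it or level with it in the other 3 groups.

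**Figure D1:**
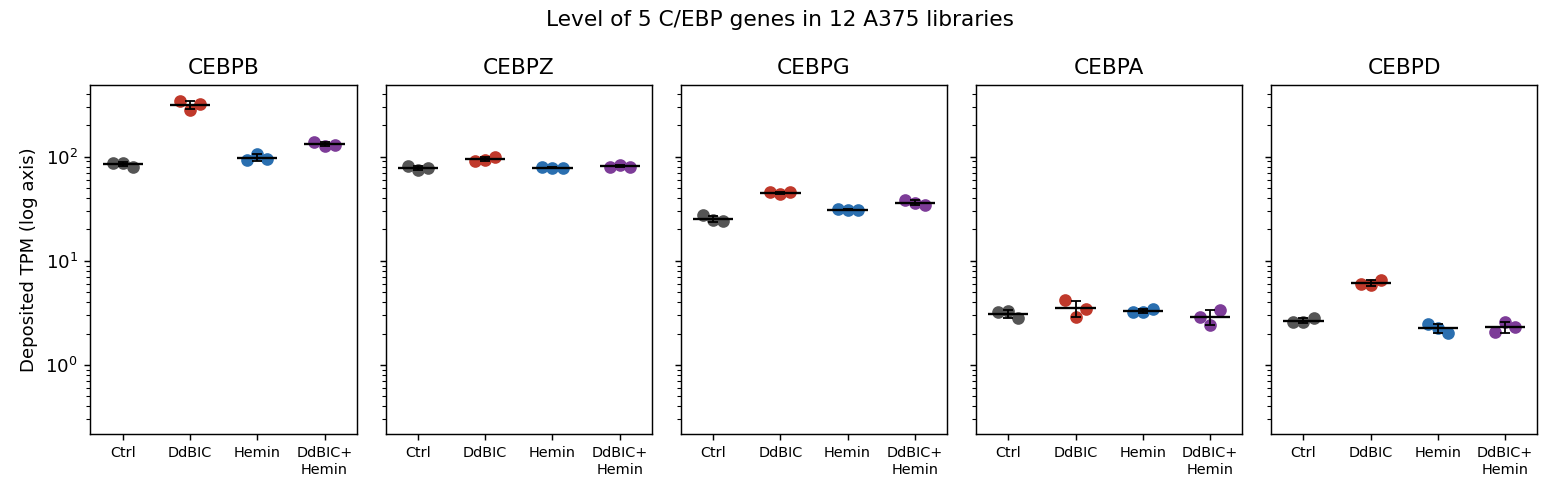
Deposited TPM (log axis) of 5 C/EBP genes in each of 12 A375 libraries, 3 per treatment; points are libraries, horizontal lines are means and bars are SD. CEBPB lies at 281 to 339 TPM under DdBIC and at 80.4 to 86.7 in Ctrl, while CEBPA overlaps between all treatments.

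DdBIC against Ctrl asks how the compound alone changed these transcripts. CEBPB, CEBPD, CEBPG and CEBPZ rose and CEBPA did not pass the test (edgeR quasi-likelihood test, Benjamini-Hochberg adjusted p under 0.05 over 14287 genes). Thus 4 of 5 genes were called, all higher, where 37.2% of all genes were called, 20.0% higher and 17.2% lower. The median log2 fold change of the 5 was 0.83, against -0.0082 over all genes tested. In bulk RNA a rise in every cell and a larger rise in some of the cells cannot be told apart.

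CEBPB, the acute-phase and stress-induced member, was at 86.5, 86.7 and 80.4 TPM in the Ctrl libraries and at 339, 281 and 322 TPM under DdBIC. Every DdBIC library was above every Ctrl library, as was the case, in one direction or the other, for 50.0% of all genes. In CPM the means were 79.6 ± 3.39 and 296 ± 27.6 (SD, n = 3 each), from 2961 to 12722 counts over the 12 libraries. The log2 fold change was 1.89 (SE 0.074, adjusted p = 1.26e-08), a 3.72-fold rise.

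CEBPD (ENSG00000221869, 1 exon, chromosome 8 at 47736909 to 47739086 on the minus strand), whose product is likewise made soon after an inflammatory signal, was far less abundant. Its Ctrl libraries were at 2.60, 2.58 and 2.82 TPM and its DdBIC libraries at 5.98, 5.79 and 6.55. The groups did not overlap, although the gene rests on 83 to 288 counts in a library. It rose 2.28-fold (log2 fold change 1.19, SE 0.112, adjusted p = 1.03e-05).

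CEBPG, the partner that lacks a transactivation domain, was at 27.3, 24.4 and 24.2 TPM in Ctrl and at 45.5, 43.9 and 45.3 under DdBIC. The DdBIC libraries lay close together and above all Ctrl libraries. Its rise was 1.78-fold (log2 fold change 0.83, SE 0.052, adjusted p = 4.42e-07).

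CEBPZ, the ribosome assembly factor, moved least among the genes called. It was at 80.8, 74.5 and 77.6 TPM in Ctrl and at 91.0, 93.4 and 98.8 under DdBIC, without overlap. The difference was 1.21-fold (log2 fold change 0.28, SE 0.036, adjusted p = 9.96e-05).

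CEBPA, the differentiation factor, was at 3.23, 3.28 and 2.81 TPM in Ctrl and 4.16, 2.90 and 3.43 under DdBIC. The groups overlapped, with the highest and one of the lower values both among the DdBIC libraries. Its log2 fold change was 0.17 with a 95% interval of -0.16 to 0.50 (adjusted p = 0.421), on 126 to 206 counts per library, so a rise of the size seen for CEBPZ lies inside the interval. Leaving out single libraries gave values from 0.020 to 0.28, none past the threshold.

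**Figure D2:**
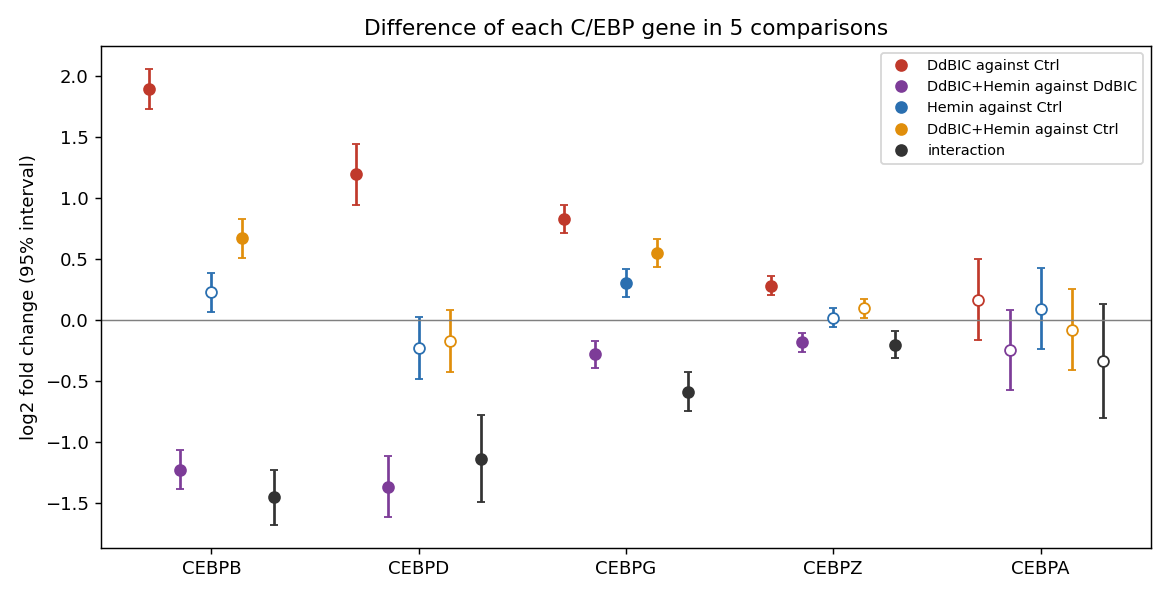
Fitted log2 fold change (y axis) of each C/EBP gene in 5 comparisons (colours), with 95% intervals; filled points had an adjusted p under 0.05 and open points did not. The DdBIC rise is largest for CEBPB (1.89), and the black points show the DdBIC difference with hemin minus that without, from -1.45 for CEBPB to -0.20 for CEBPZ among the genes called.

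DdBIC+Hemin against DdBIC asks what hemin did to cells that also received the compound. CEBPB, CEBPD, CEBPG and CEBPZ fell, so 4 of 5 genes were called, all lower, where 31.9% of all genes were called, 13.5% higher and 18.4% lower. The median log2 fold change of the 5 was -0.28, against -0.010 over all genes. The DdBIC libraries serve in both this comparison and the previous one, so the reversal of sign is not a second, separate observation.

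With both agents CEBPB was at 138, 127 and 129 TPM, below every DdBIC library and above every Ctrl library. Groups apart in this way made up 44.2% of all genes against DdBIC and 31.0% against Ctrl. CEBPB fell by 1.23 on the log2 scale from DdBIC alone (SE 0.072, adjusted p = 4.44e-07). CEBPD was at 2.05, 2.59 and 2.29 TPM, within or below the range of Ctrl. Its log2 fold change against DdBIC alone was -1.36 (SE 0.113, adjusted p = 5.52e-06).

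CEBPG stayed nearer to its DdBIC level, at 38.1, 35.9 and 34.4 TPM with both agents. These libraries were below all DdBIC libraries and above all Ctrl libraries, with a log2 fold change against DdBIC of -0.28 (SE 0.052, adjusted p = 0.00165). CEBPZ was at 80.3, 83.8 and 79.6 TPM, lower than in any DdBIC library (log2 fold change -0.18, SE 0.035, adjusted p = 0.00238). CEBPA, at 2.87, 2.42 and 3.34 TPM, overlapped with DdBIC (log2 fold change -0.25, adjusted p = 0.248).

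Hemin against Ctrl asks for the effect of hemin without the compound. Only CEBPG among the 5 genes was called, in a comparison that called 4.06% of all genes, 1.47% higher and 2.59% lower. CEBPG was at 31.5, 30.9 and 30.6 TPM under hemin, above all 3 Ctrl libraries, which is 1.24-fold higher (log2 fold change 0.31, SE 0.052, adjusted p = 0.00753). CEBPB was at 93.3, 106 and 94.7 TPM, also above all Ctrl libraries, but its log2 fold change of 0.23 did not pass after adjustment (adjusted p = 0.123, 95% interval 0.067 to 0.39). CEBPD lay lower than in Ctrl in all 3 libraries, at 2.46, 2.25 and 2.04 TPM, and did not pass either (log2 fold change -0.23, adjusted p = 0.357, 95% interval -0.48 to 0.024). Groups without overlap were found for 25.1% of all genes here. CEBPZ was at 79.1, 77.2 and 78.0 TPM (log2 fold change 0.020, adjusted p = 0.851) and CEBPA at 3.21, 3.23 and 3.43 TPM (0.092, adjusted p = 0.831), and both overlapped with Ctrl.

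The test of the difference itself was the interaction, the DdBIC difference in the presence of hemin minus that in its absence. It called 4 of the 5 genes, all negative, where 16.6% of all genes were called, 6.40% positive and 10.2% negative. The values were -1.45 for CEBPB (SE 0.102, adjusted p = 4.61e-06), -1.13 for CEBPD (SE 0.161, adjusted p = 0.000651), -0.59 for CEBPG (SE 0.073, adjusted p = 0.000277) and -0.20 for CEBPZ (SE 0.050, adjusted p = 0.0178). The CEBPZ interaction did not pass with upper-quartile normalization (-0.15, adjusted p = 0.0626). CEBPA gave -0.34 with a 95% interval of -0.80 to 0.13 (adjusted p = 0.333).

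The genes did not all return to the Ctrl level. In DdBIC+Hemin against Ctrl, CEBPB remained 1.59-fold higher (log2 fold change 0.67, adjusted p = 0.000151) and CEBPG 1.46-fold higher (0.55, adjusted p = 5.72e-05), 2 of 5 genes called where 12.4% of all genes were called, 5.66% higher and 6.74% lower. CEBPZ (0.097, adjusted p = 0.107), CEBPD (-0.17, adjusted p = 0.395) and CEBPA (-0.079, adjusted p = 0.804) did not pass. Against Hemin alone, a comparison added after the data had been seen and calling 6.80% of all genes (3.71% higher, 3.09% lower, and 26.3% without overlap of the groups), CEBPB was higher by 0.44 (adjusted p = 0.00415) and CEBPG by 0.24 (adjusted p = 0.0171). The CEBPG call in that comparison was lost without Hemin replicate 1, 2 or 3 or DBIC+Hemin replicate 1 (the highest adjusted p of these was 0.0717), and with limma on TPM. The log2 difference of both agents against Hemin alone was 23.4% of that of DdBIC against Ctrl for CEBPB, 4.84% for CEBPD, 29.1% for CEBPG and 27.7% for CEBPZ. These ratios were not tested against each other and do not count what hemin alone did. For CEBPG hemin alone gave 0.31, and both agents gave 0.55 against Ctrl where DdBIC alone gave 0.83. The numerators for CEBPD (0.058, adjusted p = 0.849) and CEBPZ (0.078, adjusted p = 0.253) did not pass the test against Hemin, and that of CEBPD was -0.030 without DBIC+Hemin replicate 2, -0.0073 without Hemin replicate 3, 0.12 without Hemin replicate 1 and 0.13 without DBIC+Hemin replicate 1, so its percentage is not fixed in sign.

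The makeup of the bZIP transcripts among the 5 genes, those of CEBPA, CEBPB, CEBPD and CEBPG, moved with these values. DDIT3, the C/EBP-related bZIP gene, is not part of the sum or the shares below. Its mean was 29.1 TPM in Ctrl and 281 TPM under DdBIC. The summed level of CEBPA, CEBPB, CEBPD and CEBPG was 116 ± 4.86 TPM in Ctrl, 369 ± 31.4 under DdBIC, 135 ± 6.87 under hemin and 173 ± 7.06 with both (SD, n = 3 each). CEBPB made up 72.3 to 74.1% of that sum in Ctrl and 84.3 to 85.9% under DdBIC, against 71.5 to 74.5% under hemin and 75.7 to 76.3% with both. The CEBPG share moved the other way under DdBIC, from 20.9 to 22.8% down to 11.5 to 13.1%, although the CEBPG level itself rose. The ratio of CEBPB to CEBPG was 3.16 to 3.55 in Ctrl, 6.42 to 7.46 under DdBIC, 2.96 to 3.43 under hemin and 3.55 to 3.75 with both. These sums and ratios rest on the same libraries as the tests above and are given as a description.

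**Figure D3:**
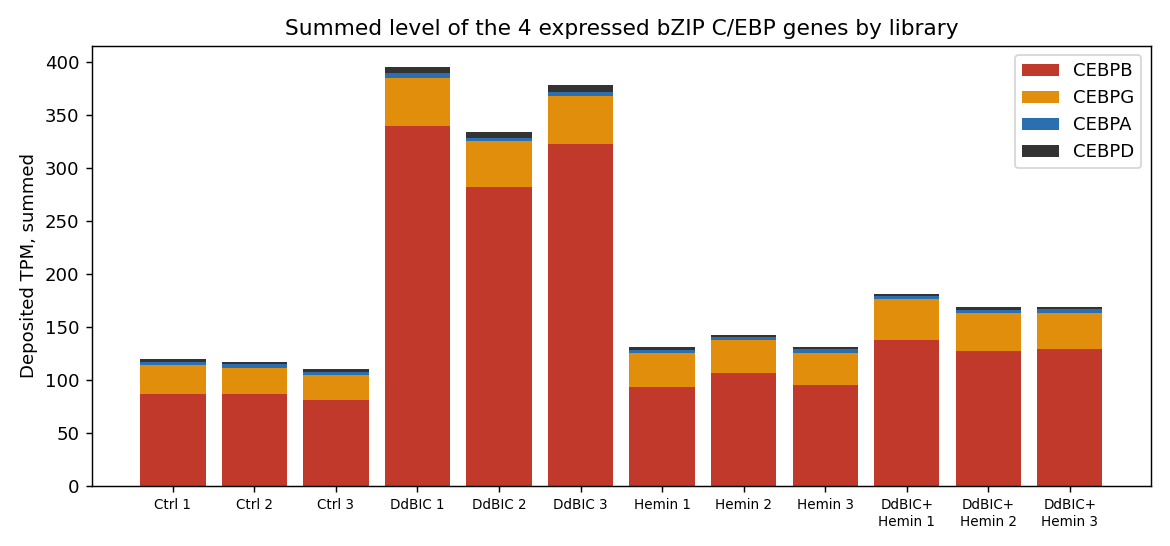
Summed deposited TPM (y axis, linear from 0) of CEBPA, CEBPB, CEBPD and CEBPG in each of 12 libraries, stacked by gene, without the C/EBP-related gene DDIT3. The DdBIC libraries reach 334 to 395 TPM, mostly CEBPB, against 110 to 120 in Ctrl and 168 to 181 with both agents.

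CEBPZ lies opposite CEBPZOS, a gene on the plus strand whose span covers 14582 bases of it and shares 267 of its 3560 exonic bases. The use of strand in counting is not given in the sources used here, so reads from the shared bases cannot be told apart. CEBPZOS moved opposite to CEBPZ under DdBIC. It was at 33.7 ± 1.73 CPM in Ctrl and 28.2 ± 1.07 under DdBIC (SD, n = 3 each), a fall by 0.26 on the log2 scale (SE 0.060, adjusted p = 0.00584). Its level was 31.9 to 35.7 CPM under hemin and 31.1 to 34.1 with both. The rise from DdBIC to both agents, 0.20 (adjusted p = 0.0257), was lost without DBIC replicate 1 (adjusted p = 0.0906) or DBIC+Hemin replicate 1 or 2 (adjusted p = 0.0521 and 0.0951) and with limma on TPM (adjusted p = 0.102). The count ratio of CEBPZOS to CEBPZ was 0.251 to 0.268 in Ctrl, 0.176 to 0.187 under DdBIC, 0.243 to 0.275 under hemin and 0.231 to 0.240 with both. In the same way CEBPB shares 231 exonic bases, 11.8% of its own, with the antisense gene CEBPB-AS1, which has no row in the table.

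**Figure D4:**
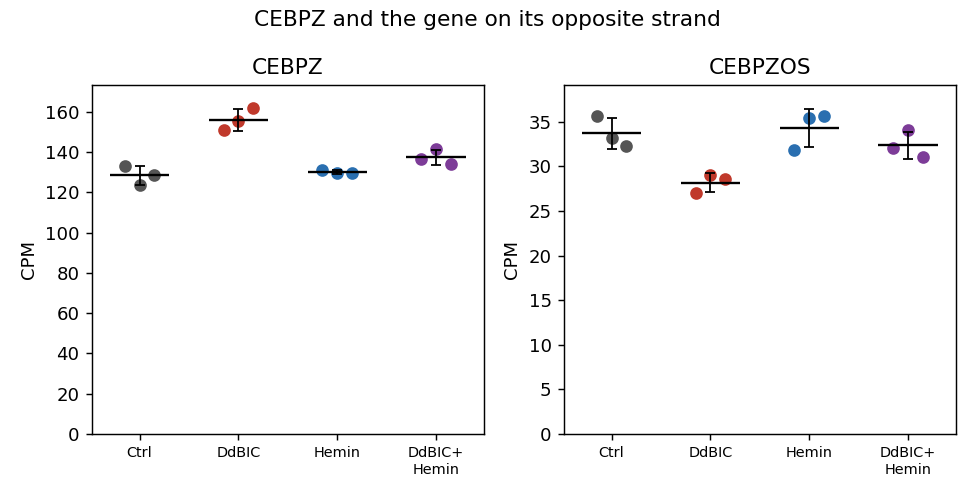
CPM (y axes, linear from 0) of CEBPZ and of CEBPZOS, the gene on its opposite strand, in 12 libraries, with means and SD. DdBIC libraries are the highest for CEBPZ and the lowest for CEBPZOS, with a mean of 28.2 CPM.

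Genes around the C/EBP loci went in both directions. Within 200 kb of the 5 genes the table held 18 other genes, of which 16 were tested. Under DdBIC 3 of them rose, 5 fell and 8 did not pass the test, with log2 fold changes from -0.91 to 0.29, where 20.0% of all genes were called higher and 17.2% lower. The 3 that rose were GPATCH11 (0.29, adjusted p = 0.00193) and HEATR5B (0.14, adjusted p = 0.0194) near CEBPZ and GPATCH1 near CEBPA (0.27, adjusted p = 0.00431). With hemin added to DdBIC, a comparison that called 13.5% of all genes higher and 18.4% lower, GPATCH1 fell (-0.26, adjusted p = 0.00736). The 5 that fell under DdBIC were CEBPZOS, WDR88 (-0.91, adjusted p = 0.0440), LRP3 (-0.29, adjusted p = 0.00714), PRKDC (-0.34, adjusted p = 0.000217) and EIF2AK2 (-0.26, adjusted p = 0.000359). WDR88, which alone sets the low end of the range above, had a mean of only 0.632 TPM over all libraries. Its call was not refitted without single libraries. With hemin added, CEBPZOS (above), LRP3 (0.21, adjusted p = 0.0366), PRKDC (0.18, adjusted p = 0.0147), EIF2AK2 (0.30, adjusted p = 0.000176) and UBE2V1 (0.21, adjusted p = 0.0345), which had not passed under DdBIC, were called higher than with DdBIC alone. PEPD, the prolidase gene 4263 bases from CEBPG, had a log2 fold change of 0.069 (adjusted p = 0.471). SPIDR, a DNA repair gene 602 bases from CEBPD, had 0.099 (adjusted p = 0.223). NDUFAF7, on the plus strand with no gap to CEBPZ, had 0.15 (adjusted p = 0.0955). Its value with hemin added to DdBIC was -0.16 (adjusted p = 0.0798).

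For this and each list below, the shares to read the counts against are those of all genes, 20.0% higher and 17.2% lower under DdBIC and 13.5% higher and 18.4% lower when hemin was added to DdBIC. The proteins that pair with C/EBPs were followed as a list of 22 bZIP genes, 19 of them tested. Under DdBIC 10 rose and 1 fell, with a median log2 fold change of 0.75. With hemin added 11 fell and 2 rose against DdBIC alone, and the median was -0.64. JUN and FOS, the AP-1 subunits, had the largest rises (log2 fold change 5.61 and 5.52, adjusted p = 2.59e-10 and 2.1e-06), and with hemin added their log2 fold changes against DdBIC alone were -3.63 and -4.29. JUNB (3.65) and JUND (2.09) rose too.

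Among them DDIT3, ATF3 and ATF4 act in the stress response. DDIT3 was at 21.2 to 36.1 TPM in Ctrl, 370, 196 and 277 under DdBIC, 42.2, 41.5 and 39.7 under hemin and 40.3, 59.1 and 62.8 with both. Its DdBIC libraries stood above all others, and it rose by 3.27 (SE 0.282, adjusted p = 1.78e-05) and fell by 2.35 with hemin (SE 0.269, adjusted p = 0.000161). The ratio of DDIT3 to CEBPB in TPM was 0.245 to 0.449 in Ctrl and 0.698 to 1.09 under DdBIC, and returned to 0.292 to 0.487 with both. ATF3, a repressor that heterodimerises with several bZIP proteins, rose by 4.42 (adjusted p = 2.43e-05) and fell by 2.69 (adjusted p = 0.000421). ATF4, the partner with which C/EBPs bind the C/EBP-ATF response element, rose by 0.67 (adjusted p = 3.3e-08). Its fall with hemin in counts, -0.25 (adjusted p = 9.24e-05), was not seen in the deposited TPM (-0.035, adjusted p = 0.828). The means were 737 CPM and 831 TPM under DdBIC and 618 CPM and 814 TPM with both, so the length behind its TPM may not be the same in all libraries, which was not tested.

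Genes that degrade, modify or help translate C/EBP proteins showed no common direction. Of 22 tested, 6 rose and 7 fell under DdBIC (over all genes 20.0% and 17.2%), with a median of -0.012 against -0.0082 over all genes. TRIB1, an adaptor that brings CEBPA to the COP1 ubiquitin ligase, rose by 1.46 (adjusted p = 2.5e-09), whereas its paralogue TRIB2 fell by 0.37 (adjusted p = 1.2e-05) and TRIB3 did not pass (0.78, adjusted p = 0.0592). Leaving out single libraries moved TRIB3 from 0.45 to 0.92. It passed in 3 of these 12 fits and in 2 of 9 other alternatives. SIAH2, a ubiquitin ligase, rose by 0.62 (adjusted p = 6.46e-06) and EHMT2, a histone methyltransferase that also methylates CEBPB, fell by 0.33 (adjusted p = 0.000324). RPS6KA3, a kinase that phosphorylates CEBPB, rose by 0.56 (adjusted p = 1.64e-08), and FBXW7, a ubiquitin ligase subunit for C/EBPs, rose by 0.43 (adjusted p = 0.000331). With hemin added, 6 rose and 6 fell.

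Signals known to induce CEBPB and CEBPD were mostly called higher. Of 25 tested, 15 rose and 1 fell under DdBIC (median 0.27), and 11 fell and 1 rose when hemin was added (median -0.10). IL6 rose by 4.58 (adjusted p = 2.55e-07), LIF by 2.19 (adjusted p = 7.15e-10) and IL1A by 1.64 (adjusted p = 0.000542). The immediate-early factors EGR2 and EGR1 rose by 7.09 (adjusted p = 9.08e-09) and 6.51 (adjusted p = 1.76e-09). TNF had 0 to 2 counts in the Ctrl libraries, 260 to 303 under DdBIC, 0 under hemin and 0 to 4 with both, so it entered the count above only through the group in which it was high.

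Known acute-phase and cytokine targets of C/EBPs were expressed in part. Of 30 listed, 16 passed the filter, 12 of these rose and none fell under DdBIC (median 2.84). With hemin added, 11 fell and 1 rose (median -2.32). Since a gene at or near 0 in Ctrl, such as CSF2, could pass the filter only through a group in which it was high, these counts and medians are not over all listed targets and are given as a description. The chemokine CXCL2 rose by 7.37 (adjusted p = 5.68e-08) and CXCL8 by 6.20 (adjusted p = 4.46e-08), and with hemin added their values against DdBIC alone were -5.88 and -4.64. CXCL3 rose by 5.59 (adjusted p = 7.13e-08) and CXCL1 by 3.85 (adjusted p = 2.52e-10), and IL6, given above, is on this list too. CSF2, which encodes GM-CSF, had 4 to 8 counts in the Ctrl libraries and 195 to 245 under DdBIC.

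Genes with a C/EBP-ATF response element split when hemin was added. Of 19 tested, 12 rose and 1 fell under DdBIC (median 0.78), while against DdBIC alone 9 fell and 6 rose with both agents (median -0.26). ATF3 and DDIT3, given above with the bZIP genes, are on this list too, so the counts of these lists are not separate. DDIT4 (2.33, adjusted p = 2.02e-10), HERPUD1 (2.27, adjusted p = 5.52e-08), SESN2 (2.25, adjusted p = 5.11e-10) and CHAC1 (2.17, adjusted p = 0.000123) rose under DdBIC. All 4 fell with hemin, with log2 fold changes of -1.46, -1.78, -1.04 and -1.39. The 6 that rose with hemin were the amino acid genes ASNS, PHGDH, PSAT1, SLC7A1 and SLC7A11 and the lipoprotein receptor VLDLR. Hemin alone raised 6 of the 19 and lowered none, where 1.47% of all genes were called higher and 2.59% lower, and SESN2 rose by 0.76 (adjusted p = 5.98e-05).

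Of 16 tested targets in growth arrest and differentiation, 7 rose and 2 fell under DdBIC (median 0.070). GADD45B rose by 2.40 (adjusted p = 1.55e-08) and GADD45A by 2.37 (adjusted p = 4.54e-06), both sensors of growth arrest and DNA damage. KLF5 (2.07, adjusted p = 1.43e-10) and KLF4 (1.67, adjusted p = 6.3e-08), factors of the same differentiation cascades, rose as well. CDKN1A, the inhibitor of cyclin-dependent kinases known as p21, rose by 0.59 (adjusted p = 4.62e-05) and its value of -0.070 with hemin did not pass (adjusted p = 0.480). ID2, an inhibitor of differentiation, was also among the 7 (1.61, adjusted p = 0.0303), but its groups overlapped. Its call was lost without Ctrl replicate 1 or 2 or DBIC replicate 1 or 2 (adjusted p = 0.101, 0.0924, 0.112 and 0.0651) and when only the 2 groups were fitted (adjusted p = 0.112). With hemin added 6 fell and 2 rose.

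For CEBPZ, 28 other assembly factors of the large ribosomal subunit were tested. Under DdBIC 14 rose and 2 fell (over all genes 20.0% and 17.2%; median 0.16). With hemin added 8 fell and 3 rose (over all genes 18.4% and 13.5%), and the median of -0.013 was close to the -0.010 of all genes. NOC3L, of the same protein family as CEBPZ, rose by 0.31 (adjusted p = 0.000407) and fell by 0.26 with hemin (adjusted p = 0.00166). NIFK rose by 0.62 (adjusted p = 0.000747), MAK16 by 0.46 (adjusted p = 3.19e-05) and RRS1 by 0.28 (adjusted p = 8.53e-05). BRIX1 rose by 0.47 (adjusted p = 1.96e-06) and NOP2, an rRNA methyltransferase, by 0.34 (adjusted p = 8.6e-07). The 2 that fell were BOP1 (-0.11, adjusted p = 0.0033) and NOC2L (-0.13, adjusted p = 0.0122), which act in the same pathway.

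Genes of other factors that have been described as CCAAT-binding were followed as well, and whether each of them binds that box was not tested. Of the 3 subunits of NF-Y, NFYA rose by 0.29 under DdBIC (adjusted p = 0.000171) and fell by 0.27 with hemin (adjusted p = 0.000366). Of 6 NFI and Y-box genes, 3 fell under DdBIC, namely NFIX (-0.61, adjusted p = 0.0215), NFIA (-0.54, adjusted p = 0.0139) and NFIC (-0.12, adjusted p = 0.0304), and none rose. The NFIX call was lost without Ctrl replicate 1 or 2 or DBIC replicate 3 (adjusted p = 0.0515, 0.0702 and 0.0552). The NFIA call was lost without DBIC replicate 1 (adjusted p = 0.0561), and the NFIC call without Ctrl replicate 2 or 3 or DBIC replicate 2 or 3 (adjusted p = 0.108, 0.0616, 0.0576 and 0.0946).

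**Figure D5:**
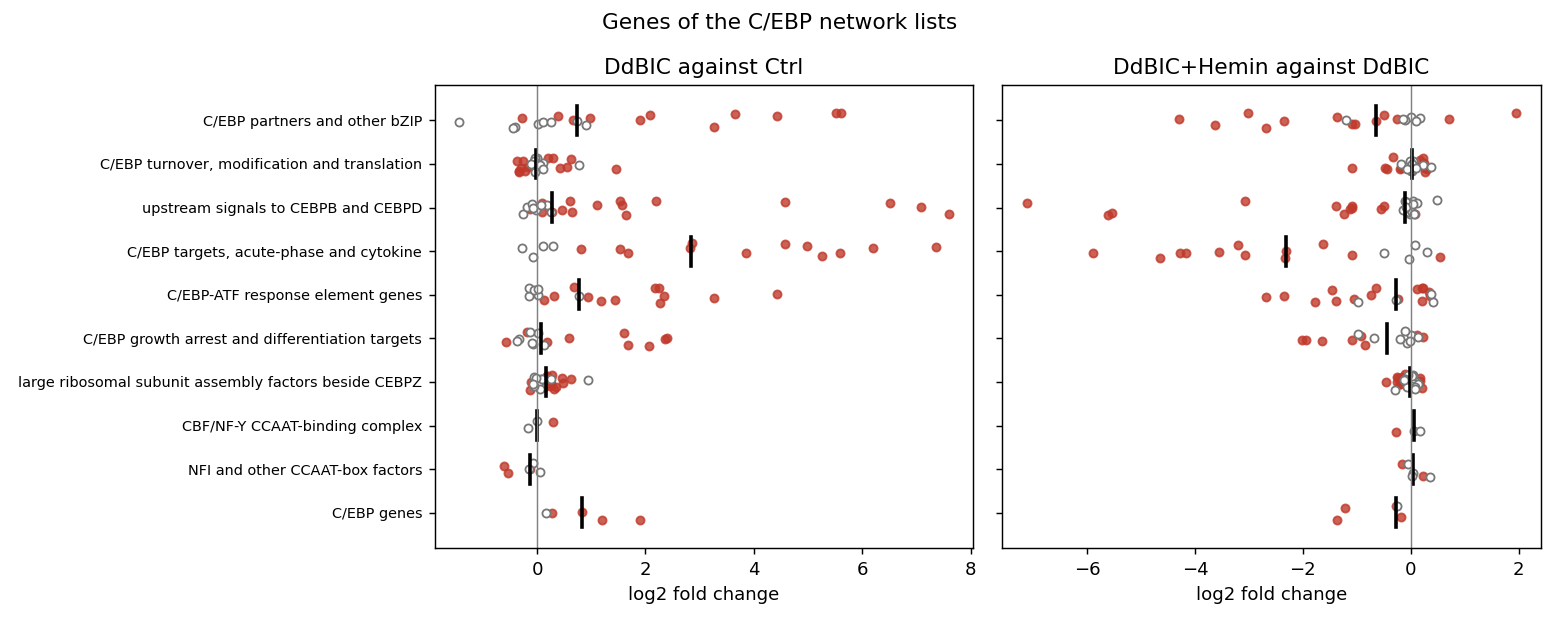
Fitted log2 fold change (x axes) of each tested gene in 9 lists around the C/EBP network and in the C/EBP genes, for DdBIC against Ctrl and DdBIC+Hemin against DdBIC; filled points had an adjusted p under 0.05 and vertical bars are list medians. Acute-phase and cytokine targets, of which only the 16 of 30 that passed the filter on low counts are shown, have medians of 2.84 under DdBIC and -2.32 when hemin was added.

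Profiles over the 12 libraries were compared by the root mean square (RMS) difference of log2 CPM, each gene centred on its own mean, over 10678 genes for CEBPA. For CEBPB the nearest genes were PLK3 (0.0542), RHOB (0.0765) and JUND (0.109), where the RMS of CEBPB itself around its mean was 0.735. CEBPG was nearest to IFRD1 (0.0570), SLC3A2 (0.0658) and TNFRSF12A (0.0825), with an RMS of its own of 0.310. CEBPD was nearest to BCL3 (0.104), RGS2 (0.105) and ZNF14 (0.105), against 0.582 of its own. CEBPZ, whose own RMS was 0.115, was nearest to SNX5 (0.0280), CDCA5 (0.0335) and HELLS (0.0342). CEBPA varied by 0.176 and its nearest genes, C2CD3, DAXX and ZNF470, differed from it by 0.103, 0.111 and 0.113, so that no profile lay close to it relative to its own spread.

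The 3′ UTRs of the 5 genes in GENCODE 29 differed in the pentamer ATTTA, the core of AU-rich elements that mark short-lived mRNAs. CEBPG held 9 in 2997 bases, CEBPA (1407 bases), CEBPB (621 bases) and CEBPZ (155 bases) held 1 each, and CEBPD held 0. Over 19560 genes the median was 2, and 28.0% of genes held at least 5. Per kilobase CEBPZ held 6.45, CEBPG 3, CEBPB 1.61, CEBPA 0.711 and CEBPD 0, against a median of 1.42. CEBPB alone among the 5 held the longer AU-rich nonamer, once, which 18.6% of genes hold.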

How the data were processed

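RNA was sequenced from 12 A375 libraries, 3 for each of Ctrl, DBIC, Hemin and DBIC+Hemin. The submitters' processing notes name Trim Galore, Subread, featureCounts and hg38, and versions, annotation and strand setting are not given in the sources used here. The authors deposited 1 table with a raw read count per gene and library, a TPM value, scaled by length and to a common sum, and an FPKM value, scaled by length and depth. Counts were the main measurement, TPM served for levels between genes and as an alternative, and the deposited FPKM were not used further.

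Counts were filtered with filterByExpr, scaled with TMM and fitted in edgeR 4.0.16 (R 4.3.3) as 1 mean per group over all 12 libraries, with 8 residual degrees of freedom. Quasi-likelihood F tests, robust, were adjusted by the Benjamini-Hochberg method over all 14287 genes tested, with a threshold of 0.05. The standard error is the log2 fold change divided by the root of F. Libraries held 37951275 to 44358912 counts, and CEBPA and CEBPD, at 83 to 288 counts, were the least precisely measured C/EBP genes. The steps were tested on simulated data.

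The C/EBP genes, the 9 lists of related genes and the tests were chosen with earlier results of these data known. Up to 6 genes per list are named, those with the largest absolute DdBIC difference among genes called and at or above 1 CPM, besides ATF4, DDIT3, ATF3, TRIB1, TRIB2, TRIB3, HMOX1, CEBPE and CEBPZOS. The 3 nearest profiles per C/EBP gene were sought where the mean level reached 5 CPM or more. TNF and CSF2 are given as counts. NOC2L, BOP1, the 6 amino acid and lipid genes and the neighbours of the C/EBP loci were singled out after their values were seen. Alternatives were DESeq2 1.42.0, upper-quartile scaling, library totals, no filter, at least 10 counts in every library, the replicate number as a block, only the groups compared, limma 3.58.1 on log2 TPM plus 1 or 0.1, and leaving out each library.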

Additional observations from a re-analysis of the deposited data

Results flagged for a closer look

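In 4 C/EBP genes the DdBIC difference measured with hemin present differed from that measured without it, by edgeR's interaction test. The difference of the log2 fold changes was -1.45 for CEBPB (adjusted p = 4.61e-06), -1.13 for CEBPD (adjusted p = 0.000651), -0.59 for CEBPG (adjusted p = 0.000277) and -0.20 for CEBPZ (adjusted p = 0.0178). The interaction called 16.6% of all genes. In each of the 4 genes every DBIC+Hemin library lay below every DBIC library, and the groups did not overlap, in either direction, for 44.2% of all genes.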

How the results depend on the processing

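The log2 fold changes of the 5 C/EBP genes were recomputed 625 times over all comparisons and alternatives. In 614 cases direction and side of the threshold were those reported, in 7 the call was lost and in 4 the direction turned. All 4 turns were in values that did not pass the test and came from leaving out 1 library: CEBPZ in Hemin against Ctrl ranged from -0.0060 to 0.047, CEBPA in DdBIC+Hemin against Ctrl from -0.20 to 0.033, and CEBPD in DdBIC+Hemin against Hemin from -0.030 to 0.13. Under every alternative the count of C/EBP genes called stayed at 4 for DdBIC and 1 for hemin, each against Ctrl, and for both agents at 4 against DdBIC and 2 against Ctrl. The interaction count was 3 with upper-quartile scaling and 4 otherwise. In DdBIC+Hemin against Hemin the count of 2 became 1 with limma on TPM, at both pseudocounts, and was 1 to 2 when single libraries were left out. Upper-quartile scaling lowered the share of called genes that were higher from 53.8% to 40.0% in DdBIC against Ctrl, and raised it from 42.4% to 59.2% in DdBIC+Hemin against DdBIC and from 38.5% to 55.4% in the interaction, while limma on TPM plus 1 lowered the last 2 to 30.1% and 26.7%. In DdBIC+Hemin against Ctrl the share of 45.6% became 34.4% with library totals and 31.4% with TPM plus 1, and in DdBIC+Hemin against Hemin 54.6% became 42.3% and 43.7%. Same-numbered libraries of different groups did not deviate together in log2 CPM (18 pairs, correlations from -0.046 to 0.081). Such correlations cannot show whether same-numbered libraries were handled together, which the labels do not say. With the replicate number as a block the C/EBP count was 4 for DdBIC and 1 for hemin, each against Ctrl, 4 and 2 for both agents against DdBIC and against Ctrl, 4 for the interaction and 2 for both agents against Hemin. Of 1905 recomputed values of other named genes, 24 lost a call and 5 gained one, all 5 of them TRIB3 in DdBIC against Ctrl. The NFIC and ID2 calls were lost with the block (adjusted p = 0.0556 and 0.0525), and the NFIX and NFIC calls when only the groups compared were fitted (adjusted p = 0.0875 and 0.0628). The causes of these shifts were not tested. CEBPA and CEBPD, at 83 to 288 counts a library, have the widest intervals.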
